A study of Homo sapiens with 23 samples.

Results

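Collagen genes were followed through RNA sequencing of 4 ovarian cancer cell lines and of sublines of each that had become resistant to prexasertib, an inhibitor of the checkpoint kinase CHK1. The members were every row of the deposited table whose gene identifier belongs to a protein-coding gene with a symbol of the form COL, number, A, number. Of 44 such genes in the name table, 39 had a row among the 21658 genes measured. COL6A5, COL6A6, COL20A1, COL21A1 and COL22A1 had none and were not analysed here. By the kind of assembly their chains enter, the 39 members comprised 11 genes of fibril-forming collagens, 6 of the basement membrane network, 7 of the fibril-associated collagens with interrupted triple helices (FACIT), 4 transmembrane, 3 beaded filament, 3 hexagonal network, 2 multiplexin and 1 anchoring fibril gene, with 2 in no such class.

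The lines were Kuramochi, OVSAHO, OV-90 and EFO-21, each labelled an ovarian cancer cell line. Each was sequenced as parental cells and as the resistant subline derived from it by stepwise increase of prexasertib over a long period. Every group held 3 libraries labelled as biological replicates, apart from parental OV-90 with 2, so that the table had 23 libraries. They are numbered as in the column names, 2 to 12 for parental and 13 to 24 for resistant cells. Whether a resistant subline was a pool or 1 clone, the dose it had reached, and whether drug was present at harvest were not given in the sources used here. Whether a line was selected more than once was not given either, and its resistant libraries are treated here as 1 subline. Differences between a subline and its parent therefore describe that subline.

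Collagens are the main structural proteins of the extracellular matrix. Each molecule is a triple helix of chains, and a helix can be a homotrimer or need chains from different genes, so that the product depends on which partner genes are active together. Types I, III and V build the banded fibrils of connective tissue, type II those of cartilage, and type IV the sheet below epithelia. Type VI chains form beaded microfilaments around cells, FACIT collagens sit on fibril surfaces, and transmembrane collagens are shed from the cell surface. In ovarian tumors fibroblasts are the best known source of fibrillar collagen, whereas the values below are from cultured tumor cell lines.

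The 6 type IV genes lie in head-to-head pairs that share 1 upstream stretch, and these stretches are shown because the results below turn on whether the partners of a pair moved together. The sequences are from RefSeq promoter records and were placed on GRCh37, where each matched once. They are plus-strand sequences without any annotated exon base, and capitals mark the letters GGGCGG (or CCGCCC on the other strand) and CCAAT (or ATTGG). COL4A1 (minus strand) and COL4A2 (plus strand) start 127 bases apart, COL4A4 (minus) and COL4A3 (plus) 419, and COL4A6 (minus) and COL4A5 (plus) 380.
COL4A1 and COL4A2, chr13:110959505-110959604: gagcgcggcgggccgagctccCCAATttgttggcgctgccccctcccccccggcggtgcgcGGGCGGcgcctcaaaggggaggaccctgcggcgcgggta
COL4A4 and COL4A3, chr2:228029170-228029339: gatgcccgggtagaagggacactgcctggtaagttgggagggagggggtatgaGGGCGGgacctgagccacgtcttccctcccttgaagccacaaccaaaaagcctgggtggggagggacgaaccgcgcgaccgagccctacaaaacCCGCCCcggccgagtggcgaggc
COL4A6 and COL4A5, chrX:107682818-107683067: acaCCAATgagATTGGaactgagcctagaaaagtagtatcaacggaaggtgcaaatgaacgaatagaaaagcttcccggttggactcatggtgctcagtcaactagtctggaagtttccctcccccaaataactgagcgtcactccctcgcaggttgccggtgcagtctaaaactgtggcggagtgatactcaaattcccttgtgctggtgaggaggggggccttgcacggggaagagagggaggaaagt
The COL4A1 and COL4A2 stretch of 100 bases held 1 match to each motif and was 78.0% G or C. The COL4A3 and COL4A4 stretch of 170 bases held 2 matches to GGGCGG and 0 to CCAAT. The COL4A5 and COL4A6 stretch of 250 bases held 0 and 2. In windows of the same length before 27305 RefSeq starts, GGGCGG was found on either strand in 31.3%, 38.2% and 42.3%, and CCAAT in 18.7%, 26.1% and 33.04%. These matches describe letters in the windows and nothing more.

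The deposited values are log2 expression values, made comparable between libraries by quantile normalization, with 1 value a gene and library. A log2 difference of 1 is a 2-fold change. Read counts are not part of the table. The depth behind a value is therefore unknown, and low values cannot be given a counting error. A gene was called at the bottom of a library when its value was at or below the 10th percentile of that library, and differences that begin or end there have no firm size. Levels of different genes are not strictly comparable, since the values are not per length. Summed marker levels and comparisons with the median gene, used below, are therefore rough guides only. For 20 members the value summarised 75 exons or junctions, and for COL6A3, COL8A2 and COL10A1 it rested on 1 exon. Exons of 14 members overlap another annotated gene, 12 of them on the opposite strand (COL18A1 with SLC19A1, COL9A3 with TCFL5 and COL19A1 with LMBRD1 among them), and whether the counting used strand is not stated.

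Libraries of a group correlated at 0.971 or more across genes except the 2 parental OV-90 libraries, at 0.952. PAX8, a Müllerian lineage factor, stood between 8.42 and 9.50 in every Kuramochi, OVSAHO and EFO-21 library but between 1.77 and 2.43 in OV-90. WT1, another such factor, was at the bottom in EFO-21 and also low in OV-90, between 1.47 and 2.09. The keratin genes KRT8 and KRT18 were high in all 23 libraries, but other epithelial markers differed between lines. KRT7 was between 10.01 and 11.44 in OVSAHO and at 4.34 or less elsewhere. KRT19 was between 3.13 and 5.76 in OVSAHO, and MUC16 was at 1.37 or less in OV-90. LUM, a fibroblast marker, was between 12.02 and 13.21 in OV-90, both parental and resistant. Of the other measured fibroblast markers, DCN and PDGFRA were between 5.21 and 6.17 in that line, and THY1 and PDGFRB between 1.73 and 3.20.

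Collagen expression differed strongly between the parental lines. Any difference among the 4 lines was tested with limma. A pass required a Benjamini-Hochberg adjusted p under 0.05 over the whole table and line means that spanned at least 2-fold. This test was passed by 36 of the 39 members, while 79.7% of all genes passed it. COL7A1, COL1A2 and COL10A1 did not. Against the mean of the other 3 parental lines, at the same adjusted p and at least a 2-fold difference, 27 members were called in Kuramochi. Of these 20 were higher and 7 lower, with 36% of all genes called (17.3% higher and 18.6% lower). OVSAHO had 26 (8 and 18), with 38.8% of all genes (19.4% and 19.4%). OV-90 had 21 (5 and 16), with 45.7% (20.9% and 24.8%), and EFO-21 had 27 (14 and 13), with 41.1% (19.8% and 21.3%). Members were also often silent. All libraries of the group were at the bottom for 9 members in parental OV-90, 4 in Kuramochi, 12 in OVSAHO and 10 in EFO-21, and between 6.87% and 7.83% of all genes were so in any of the 8 groups. These 4 contrasts share libraries, so that a high value in 1 line lowers the difference of the others.

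**Figure D1:**
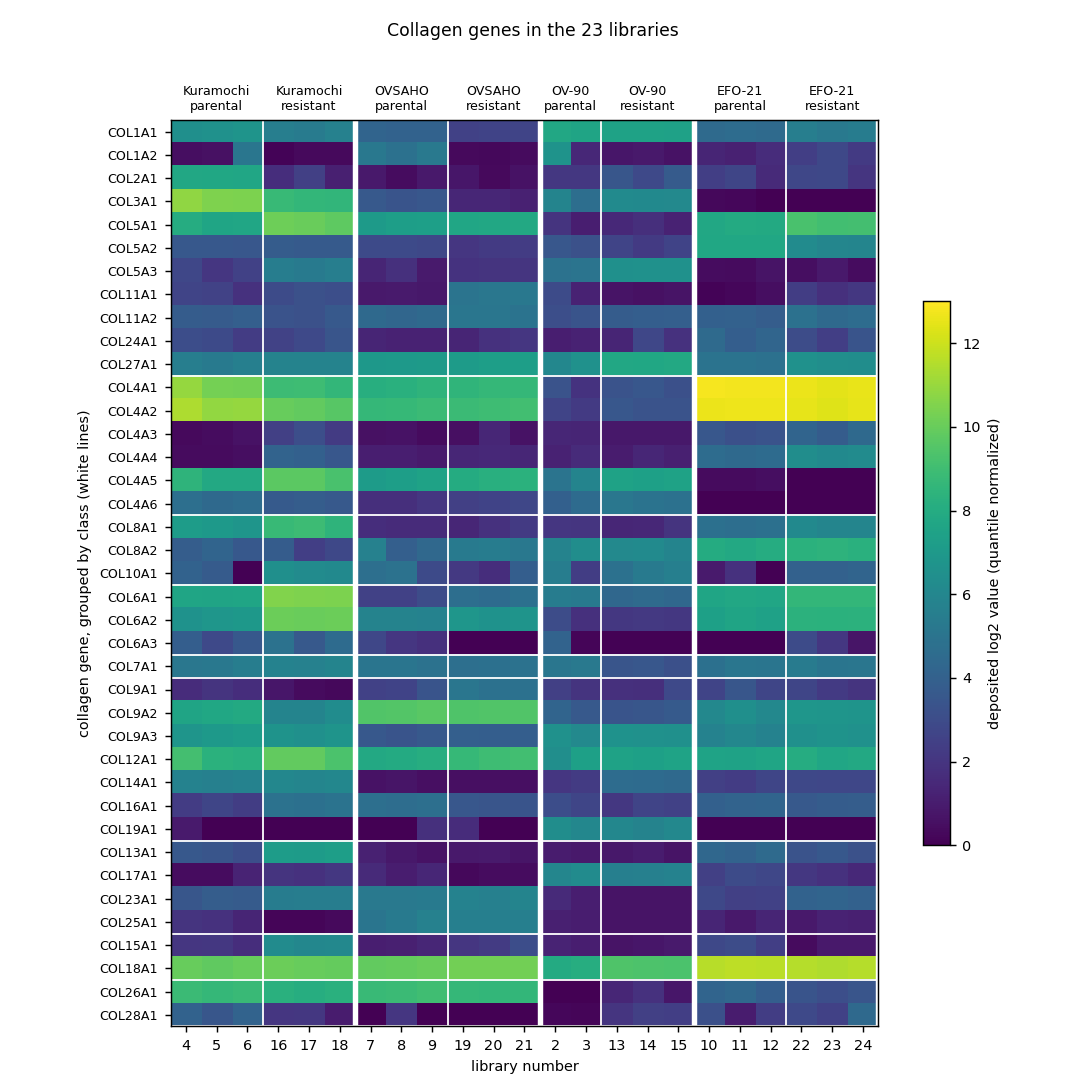
Deposited log2 values (color, 0 to 13) of the 39 collagen genes (rows, grouped by class, white lines) in the 23 libraries (columns, by line and state). COL4A1, COL4A2 and COL18A1 are brightest in EFO-21, and COL3A1 runs from above 10 in parental Kuramochi to the floor in EFO-21.

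Type IV chains differed between all 4 lines. COL4A1, which with COL4A2 forms the common basement membrane helix, stood at 12.80, 12.79 and 12.79 in parental EFO-21, at 10.92, 10.27 and 10.22 in Kuramochi, at 8.15, 8.25 and 8.48 in OVSAHO, and at 3.35 and 1.93 in OV-90. COL4A2 followed the same order, with 12.60, 12.69 and 12.68 in EFO-21, 11.42, 10.89 and 10.95 in Kuramochi, 8.65, 8.70 and 8.87 in OVSAHO, and 2.68 and 2.23 in OV-90. No library of a line overlapped the next line for either gene. The EFO-21 differences from the other lines were 5.66 ± 0.26 (standard error, adjusted p = 3.35e-08) for COL4A1 and 5.23 ± 0.13 (adjusted p = 7.33e-10) for COL4A2. OV-90 was lower by 7.88 and 8.37 on the log2 scale.

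The other pairs had other orders. COL4A3 and COL4A4, whose chains with that of COL4A5 form the helix of kidney and lung basement membranes, were highest in EFO-21, at 3.51, 3.15 and 3.30 and at 4.61, 4.45 and 4.54, and between 0.35 and 1.58 in every other parental library. COL4A5 was reversed, with 8.47, 7.84 and 7.82 in Kuramochi, 7.15, 7.31 and 7.48 in OVSAHO, 5.03 and 5.88 in OV-90, and 0.39, 0.39 and 0.50 in EFO-21. Its partner COL4A6 was also lowest in EFO-21, at 0.05, 0.04 and 0.05, but differed in the middle of the order, since OV-90 (4.01 and 4.55) stood above OVSAHO (1.75, 1.76 and 2.05). EFO-21 thus combined the highest values of the first 4 genes with the lowest of the last pair, COL4A5 being 6.51 ± 0.20 lower there on the log2 scale (adjusted p = 3.08e-09).

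**Figure D2:**
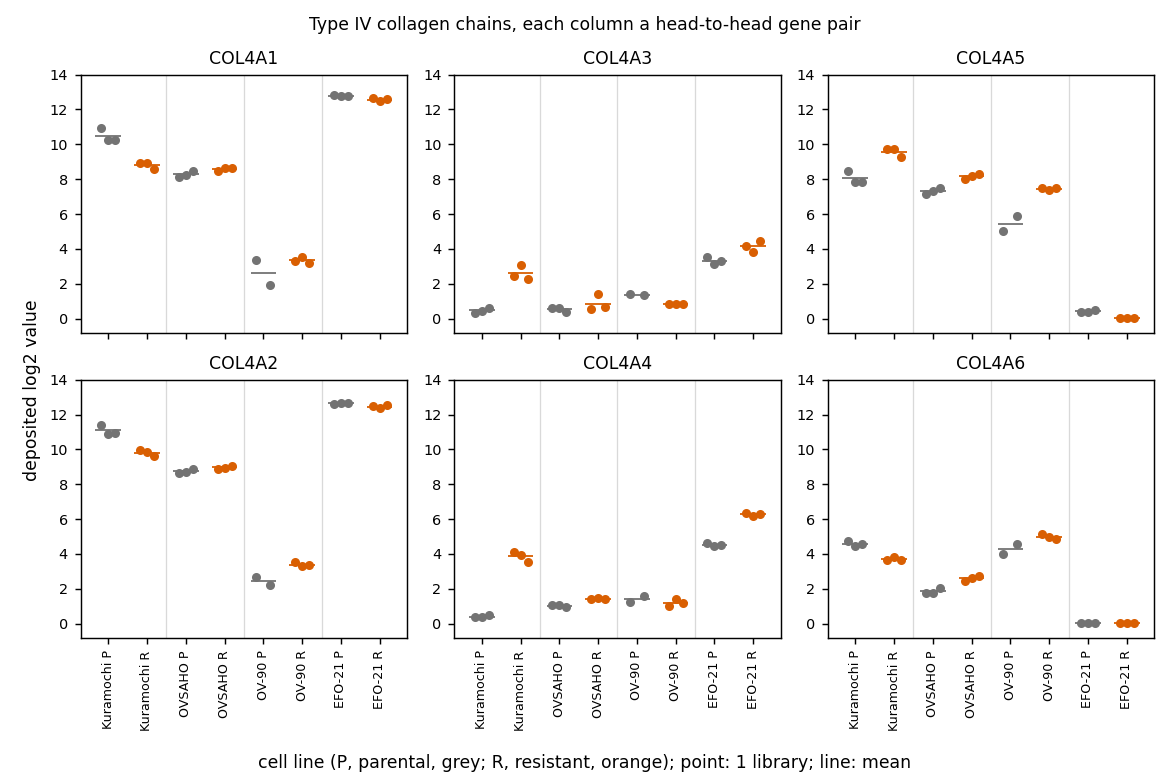
Deposited log2 values of the 6 type IV genes by cell line, with parental libraries in grey (P) and resistant libraries in orange (R), 1 point a library and a line at the mean. Each column is a head-to-head pair; COL4A1 and COL4A2 keep the same order of lines, and in Kuramochi both fall while COL4A3 and COL4A4 rise.

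Among fibril-forming genes, COL3A1 separated the lines most. It stood at 10.85, 10.48 and 10.41 in Kuramochi, at 5.87 and 4.71 in OV-90, at 3.61, 3.37 and 3.53 in OVSAHO, and at 0.28, 0.24 and 0.03 in EFO-21. Kuramochi was 7.59 ± 0.22 above the other lines (adjusted p = 2.78e-09). COL2A1, the cartilage fibril chain, was 7.78, 7.76 and 7.71 in Kuramochi and no higher than 2.71 in any other parental library, a difference of 6.06 ± 0.25 (adjusted p = 2.32e-08). COL1A1, the major chain of type I, was highest in OV-90 (7.78 and 7.60), then Kuramochi (6.49, 6.58 and 6.72), EFO-21 (4.48, 4.59 and 4.48) and OVSAHO (4.19, 4.10 and 4.09). COL5A1, a chain of type V that regulates fibril diameter, lay between 7.09 and 8.06 in all 9 libraries of the other lines but at 1.94 and 1.10 in OV-90, which was 6.12 lower on average. COL5A2, its usual partner chain, was 7.73, 7.76 and 7.75 in EFO-21 and between 2.83 and 3.58 elsewhere. Here again the partners did not share an order of lines.

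Type VI chains followed a common rule only in part. COL6A1 was 7.65, 7.59 and 7.66 in Kuramochi, 7.67, 7.79 and 7.68 in EFO-21, 5.48 and 5.38 in OV-90, and 2.53, 2.52 and 3.01 in OVSAHO. COL6A2, which lies next to it on chromosome 21, was 5.83, 5.82 and 5.78 in OVSAHO but 3.03 and 1.82 in OV-90, so that the lowest line differed between the partners. The OVSAHO difference was -4.24 ± 0.12 for COL6A1 (adjusted p = 1.64e-09), and COL6A2 was not called there. COL6A3, the largest type VI chain, is described below with the genes that varied between libraries.

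Several less studied collagens marked 1 line or a pair of lines. COL26A1 was 8.84, 8.67 and 8.83 in Kuramochi and 8.81, 8.84 and 9.02 in OVSAHO, between 3.87 and 4.40 in EFO-21, and at the bottom in both OV-90 libraries. COL9A2, a FACIT chain of cartilage, was highest in OVSAHO (9.49, 9.50 and 9.69), 3.61 ± 0.13 above the other lines. COL19A1, a FACIT chain, and COL17A1, the transmembrane collagen of hemidesmosomes, were both OV-90 genes. COL19A1 stood at 6.35 and 5.997 there and at 1.79 or less in the other 9 libraries, and COL17A1 at 5.98 and 6.28 against 2.98 or less. COL8A1, a hexagonal network chain, was 7.19, 6.96 and 6.80 in Kuramochi, and its homolog COL8A2 was 7.98, 7.86 and 8.07 in EFO-21. COL18A1, the multiplexin of epithelial and vascular basement membranes, was above the median gene in every line, lowest in OV-90 (7.97 and 8.11) and highest in EFO-21 (11.59, 11.72 and 11.64). COL14A1 (Kuramochi, 3.97 above the others), COL25A1 (OVSAHO, 4.03) and COL24A1 (EFO-21, 2.46) were further genes called higher in a single line. COL7A1, the anchoring fibril chain, had parental means within 0.29 of each other, and the test of any difference gave an adjusted p of 0.23.

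For most members the replicate libraries lay close, with a median range within a group of 0.18 to 0.40 against 0.22 to 0.42 for all genes. COL1A2, the second chain of type I, was the clearest exception. In parental OV-90 it was 6.70 in 1 library and 1.43 in the other, and in parental Kuramochi 0.46, 0.59 and 5.11. The OVSAHO parental libraries were even (5.21, 4.83 and 5.26), as were those of EFO-21 (1.36, 1.20 and 1.64). COL1A1 did not share this split, since it was 7.78 and 7.60, and 6.49, 6.58 and 6.72, in the same 5 libraries of OV-90 and Kuramochi. COL6A3 was 4.16 and 0.18 in parental OV-90, high in the library that was high for COL1A2. COL10A1, the chain of growth plate cartilage, was also high in that library (5.52 and 2.38), but it was 4.11, 3.75 and 0.03 in Kuramochi, so that the library highest for COL1A2 was the lowest for it. COL28A1 varied as well, at 0.02, 2.07 and 0.01 in parental OVSAHO and at 3.20, 0.99 and 2.39 in parental EFO-21.

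Other genes split between the same libraries as well. The OV-90 library with high COL1A2 had 412 genes more than 2 log2 units above the other parental library and 480 below it, and the Kuramochi library had 71 above and 127 below both of its partners. The summed level of 5 measured fibroblast markers (the log2 of their summed linear values, without any collagen) was 12.35 and 13.23 in the 2 parental OV-90 libraries and 8.19, 8.39 and 8.58 in Kuramochi. In OV-90 this sum is nearly all LUM (12.31 and 13.21), which was lower in the library with high COL1A2. DCN (6.17 and 5.77) and PDGFRB (2.74 and 1.76) were higher there, and PDGFRA (5.62 and 5.52) and THY1 (3.06 and 3.20) differed little. Summed leukocyte markers, led by CD14, were 7.81 and 7.07 in OV-90 and 6.02, 6.31 and 6.68 in Kuramochi, in both lines highest in the library with high COL1A2. Their part and the part of a technical difference between libraries in these values were not tested. Both libraries were also left out, a choice made after seeing the COL1A2 values, which left library 3 alone for parental OV-90. The COL1A2 difference was then -2.12 in parental Kuramochi and 3.98 in OVSAHO, where no line had been called with all libraries. COL10A1 was then 1.77 higher in OVSAHO. Since the choice removed the spread of COL1A2 itself, these are sizes only and no test is drawn from them.

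**Figure D3:**
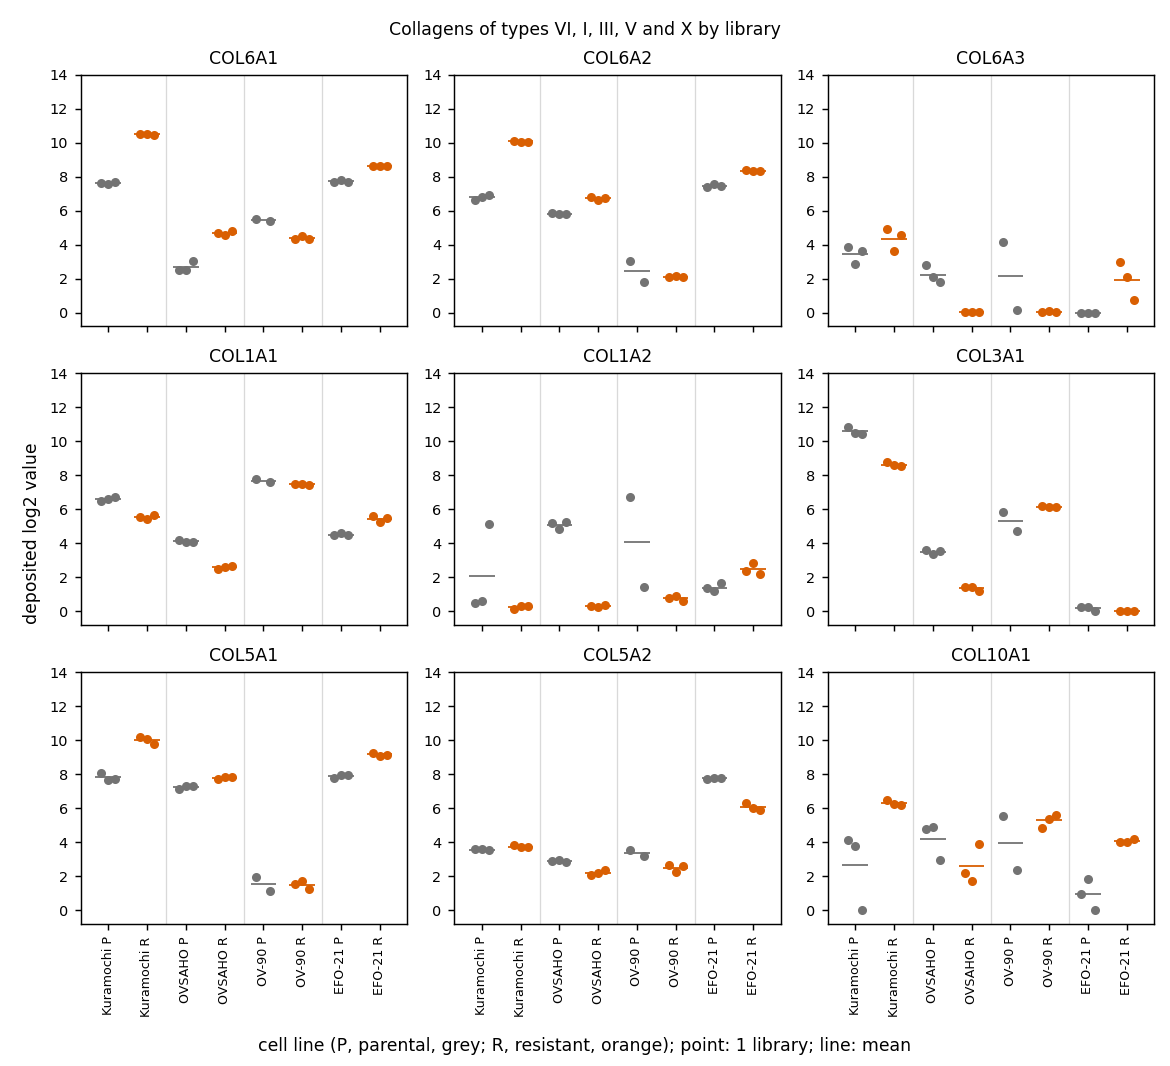
Deposited log2 values of 9 collagen genes by cell line, with parental libraries in grey (P) and resistant libraries in orange (R), 1 point a library and a line at the mean. COL1A2, COL6A3 and COL10A1 show parental groups whose libraries lie far apart, while COL6A1, COL1A1 and COL5A1 show tight groups.

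Resistant and parental cells were compared within each line to ask which collagens had changed with acquired resistance. A change was called at an adjusted p under 0.05 and at least 2-fold. Kuramochi had 24 called members, 15 higher and 9 lower, where 22.5% of all genes were called (11.8% higher and 10.6% lower). OVSAHO had 9 (4 higher and 5 lower), where 7.76% of all genes were called (3.93% and 3.83%). OV-90 had 10 (8 and 2), with 16.1% of all genes (9.5% and 6.56%), and EFO-21 had 12 (9 and 3), with 14.3% (7.11% and 7.15%). As shares of the 39 members these are 61.5%, 23.1%, 25.6% and 30.8%, above the share of all genes in each line. The median change of the members was 0.25 in Kuramochi, 0.26 in OVSAHO, -0.06 in OV-90 and 0.30 in EFO-21, beside -0.02, 0.00, -0.06 and 0.01 over all genes. In a bulk sample, fewer cells that express a gene and less RNA per cell cannot be told apart.

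The called members differed between the lines. Of the 39 members, 34 were called in at least 1 line, 8 were called higher in a line and lower in another, and 0 were called in the same direction in 3 lines or more. With changes that were not called counted as well, COL5A3, COL12A1 and COL27A1 had higher means in resistant cells of every line. COL5A1, COL6A1 and COL6A2 were among the members higher in Kuramochi, OVSAHO and EFO-21. Lower means in several lines were also seen, for COL1A2 in Kuramochi, OVSAHO and OV-90 and for COL17A1 in OVSAHO, OV-90 and EFO-21, among others. COL4A6, COL8A2, COL9A3, COL11A2 and COL19A1 were called in none. These counts across lines were not made over all genes, so whether they are particular to collagens is not known. Libraries of parental and resistant cells did not overlap for 35 members in Kuramochi (59.2% of all genes), 27 in OVSAHO (48.4%), 28 in OV-90 (69.1%) and 31 in EFO-21 (59.7%), and the 55 called changes were all among them.

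**Figure D4:**
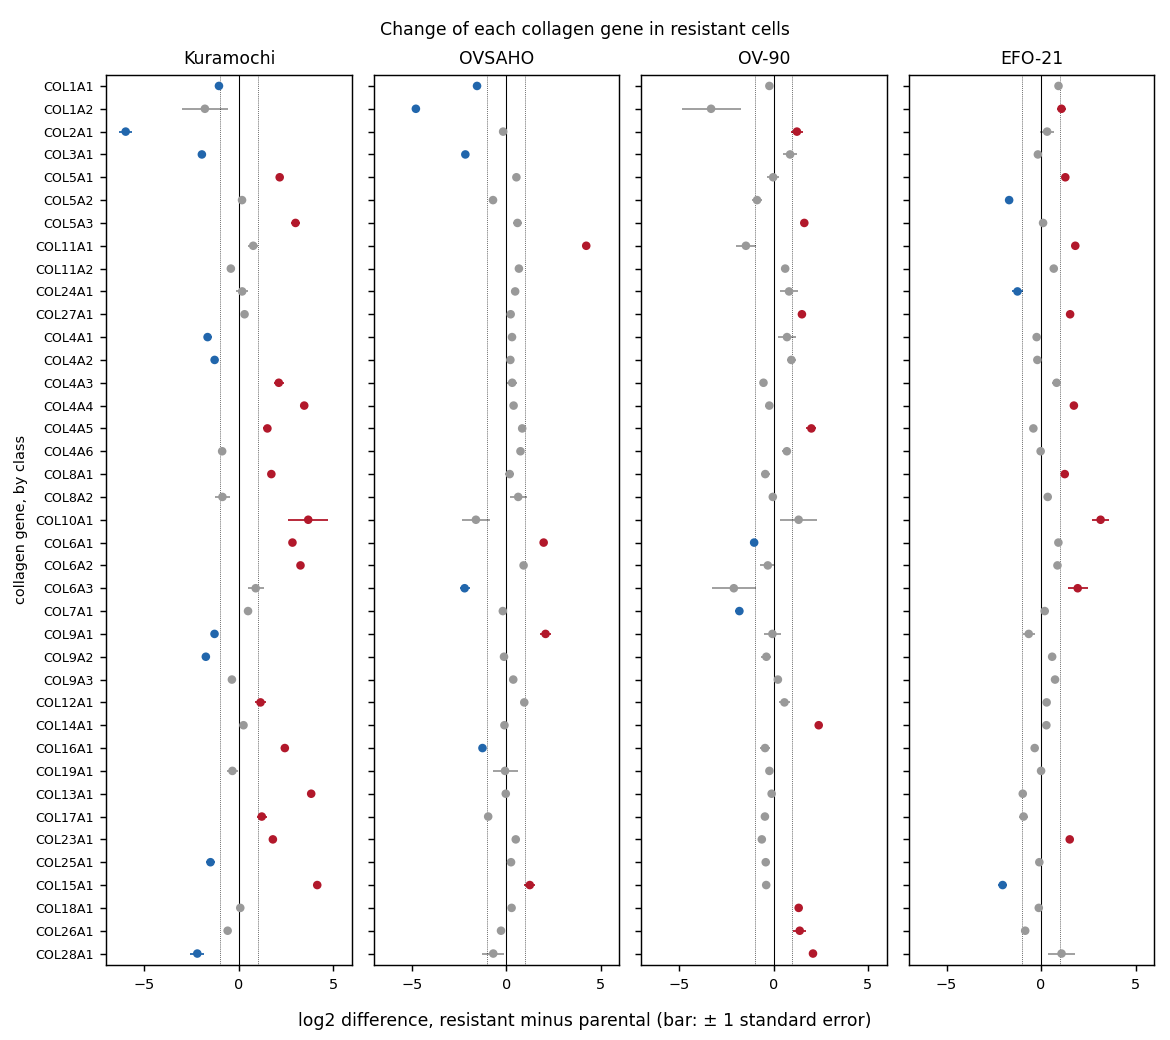
Log2 difference between resistant and parental cells (x axis, bars ± 1 standard error) for the 39 collagen genes in each line, red for called higher, blue for called lower and grey for not called. Dotted lines mark a 2-fold change; Kuramochi has 24 colored points and OVSAHO 9.

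In Kuramochi the fall of COL2A1 was the largest change of a member. It fell from 7.78, 7.76 and 7.71 to 1.71, 2.46 and 1.13, a change of -5.98 ± 0.34 (adjusted p = 5.32e-05). COL15A1, a multiplexin of basement membranes, rose from 2.03, 2.13 and 1.73 to 6.26, 6.03 and 6.08, by 4.16 ± 0.19 (adjusted p = 2.66e-05). COL13A1, a transmembrane collagen of cell adhesions, rose from 3.57, 3.42 and 3.11 to 7.20, 7.12 and 7.29, by 3.84 ± 0.17 (adjusted p = 2.1e-05). Groups were far apart for these 3 genes.

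Type VI rose in Kuramochi through both of its neighbouring genes. COL6A1 went from 7.65, 7.59 and 7.66 to 10.52, 10.50 and 10.41 (2.85 ± 0.06, adjusted p = 3.44e-06). COL6A2 went from 6.63, 6.82 and 6.94 to 10.09, 10.05 and 10.06 (3.27 ± 0.09, adjusted p = 6.25e-06). COL6A3 was 3.89, 2.88 and 3.60 before and 4.89, 3.63 and 4.55 after, with overlapping groups and an adjusted p of 0.124. Type V rose as well. COL5A1 reached 10.15, 10.04 and 9.75 from 8.06, 7.67 and 7.70 (2.17 ± 0.15, adjusted p = 9.84e-05), and COL5A3 rose by 3.01 ± 0.23, whereas COL5A2 was 3.58, 3.57 and 3.51 before and 3.81, 3.69 and 3.70 after. COL10A1 was 6.49, 6.25 and 6.19 in resistant cells and 4.11, 3.75 and 0.03 in parental cells. Its change of 3.68 ± 1.06 (adjusted p = 0.0295) was called with all libraries but not when a resistant library was left out, whichever it was (adjusted p = 0.0716 to 0.0858).

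The major fibril and basement membrane chains went the other way in Kuramochi. COL3A1 fell from 10.85, 10.48 and 10.41 to 8.76, 8.60 and 8.54 (-1.95 ± 0.13, adjusted p = 9.19e-05), and COL1A1 from 6.49, 6.58 and 6.72 to 5.56, 5.41 and 5.69 (-1.04 ± 0.12, adjusted p = 0.000923). COL4A1 fell to 8.94, 8.95 and 8.59 and COL4A2 to 9.97, 9.86 and 9.61, changes of -1.65 ± 0.21 and -1.27 ± 0.16. Both remained above the median gene. COL1A2 was 0.14, 0.33 and 0.33 in resistant cells, and with the split among parental libraries the change of -1.79 ± 1.24 was not called (adjusted p = 0.278).

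While COL4A1 and COL4A2 fell, the pair COL4A3 and COL4A4 left the bottom of the table in Kuramochi. COL4A3 went from 0.35, 0.43 and 0.64 to 2.44, 3.10 and 2.25, and COL4A4 from 0.37, 0.38 and 0.49 to 4.13, 3.96 and 3.55. Their differences of 2.12 ± 0.27 and 3.47 ± 0.22 start from the floor. COL4A5 rose from 8.47, 7.84 and 7.82 to 9.73, 9.70 and 9.26 (1.52 ± 0.22, adjusted p = 0.00188), and COL4A6 was lower by less than 2-fold (-0.88 ± 0.18, adjusted p = 0.00823). Both partners of the first 2 pairs were called in the same direction, and COL4A5 and COL4A6 differed in sign. Other called rises in Kuramochi were COL16A1 (2.44), COL23A1 (1.81), COL8A1 (1.73), COL17A1 (1.22, from the bottom) and COL12A1 (1.16). COL12A1 lost its call when library 5, 6, 16 or 17 was left out, and COL1A1, then just under 2-fold, without library 6 or 17. The other falls were COL28A1 (-2.19), COL9A2 (-1.74), COL25A1 (-1.49, to the bottom) and COL9A1 (-1.28, to the bottom). All 4 transmembrane members were called, 3 of them higher.

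In OVSAHO the chains of types I and III fell together. Of the 11 fibril-forming members 3 were called lower and 1 higher, and 6 of the 11 differences were positive. COL5A1 was among these, at 7.09, 7.28 and 7.32 before and 7.69, 7.81 and 7.83 after, short of 2-fold. COL1A2 fell from 5.21, 4.83 and 5.26 to 0.33, 0.26 and 0.38, the bottom of the table, with a difference of -4.78 ± 0.18 (adjusted p = 6.17e-05). COL3A1 fell from 3.61, 3.37 and 3.53 to 1.41, 1.42 and 1.21 (-2.16 ± 0.16, adjusted p = 0.000487), and COL1A1 from 4.19, 4.10 and 4.09 to 2.50, 2.60 and 2.66 (-1.54 ± 0.14, adjusted p = 0.00103). COL6A3 went from 2.79, 2.07 and 1.79 to 0.01, 0.02 and 0.02. The groups did not overlap for any of the 4. COL16A1, a FACIT chain, also fell, from between 4.63 and 4.74 to between 3.36 and 3.53.

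Rises in OVSAHO were fewer and began low. COL11A1, a minor fibril chain of cartilage that was picked out here after its values were seen, went from 0.87, 0.94 and 0.83 to 4.99, 5.15 and 5.23, a difference of 4.24 ± 0.15 from the bottom (adjusted p = 5.57e-05). COL9A1 rose from 2.50, 2.61 and 3.38 to 5.08, 4.82 and 4.83, by 2.09 ± 0.27. COL6A1 rose from 2.53, 2.52 and 3.01 to 4.68, 4.56 and 4.78 (1.99 ± 0.19, adjusted p = 0.00121), and COL6A2 was higher by 0.92 ± 0.07 (adjusted p = 0.000657), short of 2-fold. COL15A1 rose by 1.25 ± 0.30, a call that was lost without library 7, 8, 20 or 21. None of the 6 type IV genes was called in OVSAHO, and all 6 differences were positive, between 0.22 for COL4A2 and 0.85 for COL4A5. None of the 9 called members had a mean above the median gene of the line in either state. With genes of low mean left out (below the 25th percentile of gene means in the line's own libraries), 16 members stayed in the test and only COL16A1 was called, which is 6.25% of them beside 5.36% of all genes left. The OVSAHO share above that of all genes was thus carried by members of low mean.

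In OV-90 the called changes were mostly rises. COL4A5 rose from 5.03 and 5.88 to 7.47, 7.40 and 7.49 (2.00 ± 0.27, adjusted p = 0.0148). COL5A3, the minor type V chain, rose from 4.90 and 4.99 to 6.53, 6.58 and 6.60 (1.62 ± 0.12, adjusted p = 0.00562). COL27A1, a fibril-forming collagen of cartilage and other tissues, rose from 6.02 and 6.57 to 7.79, 7.74 and 7.84 (1.5 ± 0.18), and COL18A1 from 7.97 and 8.11 to 9.40, 9.37 and 9.32 (1.33 ± 0.07, adjusted p = 0.00414). The 2 groups were apart for each. COL14A1 (2.39), COL28A1 (2.08, from the bottom), COL26A1 (1.38, from the bottom) and COL2A1 (1.23) also rose.

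COL7A1 and COL6A1 fell in OV-90. COL7A1 went from 5.11 and 5.27 to 3.44, 3.55 and 3.15 (-1.81 ± 0.22, adjusted p = 0.0126), and COL6A1 from 5.48 and 5.38 to 4.35, 4.49 and 4.36 (-1.03 ± 0.17, adjusted p = 0.0193). COL6A2 was 3.03 and 1.82 before and 2.12, 2.14 and 2.10 after, and was not called. COL1A1 was 7.78 and 7.60 before and 7.48, 7.48 and 7.43 after, and COL3A1 5.87 and 4.71 before and 6.20, 6.16 and 6.13 after, neither of them called. COL1A2 was 0.77, 0.88 and 0.62 in resistant cells, below both parental libraries (6.70 and 1.43), but the difference of -3.31 ± 1.56 had an adjusted p of 0.154. COL4A1 and COL4A2 were low in both states, with resistant libraries between 3.20 and 3.52. With 2 parental libraries the OV-90 test was the least firm. Without any 1 of the 3 resistant libraries it called 2 members and between 1.43% and 1.96% of all genes, and COL18A1 was called each time. The other was COL28A1 without library 13 and COL14A1 without library 14 or 15. COL6A1, COL2A1 and COL26A1 were also lost without parental library 2, and the last 2 without library 3.

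In EFO-21, COL5A1 and COL5A2 moved in opposite directions. COL5A1 rose from 7.78, 7.93 and 7.92 to 9.26, 9.09 and 9.13 (1.28 ± 0.06, adjusted p = 5.73e-05). COL5A2 fell from 7.73, 7.76 and 7.75 to 6.28, 5.98 and 5.90 (-1.69 ± 0.10, adjusted p = 0.000111). Parental and resistant libraries did not overlap for either gene.

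COL4A4 rose in EFO-21 from 4.61, 4.45 and 4.54 to 6.38, 6.15 and 6.28 (1.74 ± 0.11, adjusted p = 0.000115), and COL4A3 was higher by 0.82 ± 0.22, under 2-fold. COL27A1 rose from 4.95, 4.96 and 4.86 to 6.56, 6.44 and 6.37 (1.54 ± 0.09, adjusted p = 1e-04), and COL8A1 from 4.82, 4.69 and 4.79 to 6.20, 5.92 and 5.94 (1.25 ± 0.12, adjusted p = 0.000474). COL4A1 stayed at 12.63, 12.46 and 12.59 and COL4A2 at 12.50, 12.36 and 12.52, lower than in parental cells by 0.23 and 0.20 on the log2 scale. COL6A1 (8.63 in all 3 libraries) and COL6A2 (8.36, 8.31 and 8.35) were above their parental libraries by 0.92 ± 0.04 and 0.87 ± 0.06, short of 2-fold. COL1A1 was higher by 0.92 as well.

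The remaining EFO-21 calls involved low values. COL10A1 went from 0.94, 1.86 and 0.00 to 4.03, 4.02 and 4.21 (3.15 ± 0.46), COL11A1 from 0.12, 0.23 and 0.49 to 2.37, 1.80 and 2.09, and COL1A2 from 1.36, 1.20 and 1.64 to 2.40, 2.83 and 2.21. COL6A3 was at 0.00 in the 3 parental libraries and at 2.96, 2.12 and 0.74 in the resistant ones, the widest spread of a resistant EFO-21 group among the called members. COL23A1 rose by 1.52, and COL15A1 (-2.04, to the bottom) and COL24A1 (-1.25) fell. Leaving out a library ended the calls of COL6A3 (library 10, 11, 12 or 23), COL24A1 (10, 12 or 23) and COL1A2 (11 or 23, at just under 2-fold), and COL1A2 was not called in a fit of all 23 libraries (adjusted p = 0.442). COL3A1 was at the floor in all 6 EFO-21 libraries.

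Some members were called in the same direction in a pair of lines. COL4A4, COL5A1, COL8A1, COL10A1 and COL23A1 rose in Kuramochi and EFO-21, COL4A5 and COL5A3 in Kuramochi and OV-90, COL11A1 in OVSAHO and EFO-21, COL27A1 in OV-90 and EFO-21, and COL6A1 and COL15A1 in Kuramochi and OVSAHO. COL1A1 and COL3A1 fell in Kuramochi and OVSAHO. In a fit of the average change over the 4 lines, 8 members were called, 7 higher and 1 lower, where 6.09% of all genes were (2.9% higher and 3.2% lower). COL10A1 (1.66, adjusted p = 0.0495), COL11A1 (1.49), COL4A4 (1.43), COL5A3 (1.32), COL6A1 (1.30), COL6A2 (1.27) and COL5A1 (1.05) were higher, and COL1A2 (-2.14 ± 0.69, adjusted p = 0.022) was lower. Without the 2 parental libraries in which COL1A2 stood apart, 6 were called, and COL1A2 (-1.29 ± 0.56, adjusted p = 0.0964) and COL10A1 (1.49 ± 0.55, adjusted p = 0.0517) were not among them.

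The difference between lines was itself tested, as the change in 1 line minus the mean change of the other 3. It was called for 26 members in Kuramochi (25.8% of all genes), 21 in OV-90 (21.6%), 12 in OVSAHO (10.7%) and 12 in EFO-21 (17.2%). The 4 contrasts share libraries, so that a large change in 1 line shifts the differences of the others. COL2A1 (-6.45 ± 0.41), COL15A1 (4.55 ± 0.30) and COL13A1 (4.20 ± 0.22) differed most in Kuramochi. In OV-90 the COL6A1 change was 2.95 lower than in the other lines (standard error 0.13, adjusted p = 1.88e-11), and that of COL18A1 was 1.24 ± 0.07 higher. In OVSAHO the change of COL1A1 differed by -1.43 ± 0.12 and in EFO-21 by 1.86 ± 0.12. COL4A1 and COL4A2 differed in Kuramochi (-1.91 and -1.60) and in OV-90 (1.23 and 1.36), with the same sign for both partners.

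Genes needed to make, cross-link and sense collagen were counted beside the members. Of 33 genes for chain modification, folding, propeptide removal and cross-linking, 5 rose and 2 fell in Kuramochi, 6 and 1 in OVSAHO, 1 and 2 in OV-90, and 1 and 2 in EFO-21. The called shares of 21.2%, 21.2%, 9.09% and 9.09% in that order were above that of all genes in OVSAHO (7.76%) and below it in the other lines (22.5%, 16.1% and 14.3%). ADAMTS2, which removes the amino-terminal propeptide of fibrillar procollagens, rose in Kuramochi from 3.84, 3.67 and 3.54 to 9.18, 9.12 and 9.15 (5.47 ± 0.11), while COL1A1 and COL3A1 fell there. LOX, a lysyl oxidase that cross-links collagen, rose in Kuramochi (3.57), OVSAHO (2.54) and OV-90 (1.18), and was not called in EFO-21. LOXL3, another oxidase, fell by 3.56 on the log2 scale in Kuramochi. FKBP10, a chaperone of procollagen, rose in OVSAHO (3.00 ± 0.04) and fell in EFO-21 (-1.46 ± 0.14). P3H2, a prolyl hydroxylase acting on type IV chains, fell in EFO-21 (-2.08) and rose in OVSAHO (1.10).

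Of 10 measured collagen receptors, 3 rose in Kuramochi, 2 in OVSAHO and 2 in OV-90, and in EFO-21 1 rose and 2 fell. These are shares of 30%, 20%, 20% and 30%, beside 22.5%, 7.76%, 16.1% and 14.3% of all genes. With 10 genes such shares are coarse. DDR2, a receptor kinase for fibrillar collagen, rose in Kuramochi from 3.45, 2.57 and 2.57 to 8.83, 9.06 and 8.39 (5.89 ± 0.30) and in OVSAHO from 1.78, 2.41 and 2.06 to 4.34, 4.43 and 4.28 (2.27 ± 0.20). The groups were apart in both lines. The integrin chain ITGA11 rose in Kuramochi (3.64), and ITGA1 rose in OVSAHO (2.26) and OV-90 (1.15) and fell in EFO-21 (-2.38).

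Of 17 basement membrane partners of type IV, 2 rose and 4 fell in Kuramochi, 2 and 2 in OVSAHO, 4 and 1 in OV-90, and 2 and 0 in EFO-21. These are shares of 35.3%, 23.5%, 29.4% and 11.8%, beside 22.5%, 7.76%, 16.1% and 14.3% of all genes, so that only the last was below. NID1, the nidogen that links laminin and type IV networks, rose in Kuramochi (3.46), OVSAHO (1.98) and EFO-21 (1.72), and NID2 in Kuramochi (2.21) and EFO-21 (1.18). The laminin chain LAMB3 fell in Kuramochi (-2.68) and OVSAHO (-2.69). PXDN, the peroxidase that makes the sulfilimine cross-link of type IV, was at the floor in both parental OV-90 libraries and at 2.07, 2.23 and 1.76 after, in the line where COL4A1 and COL4A2 were lowest.

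**Figure D5:**
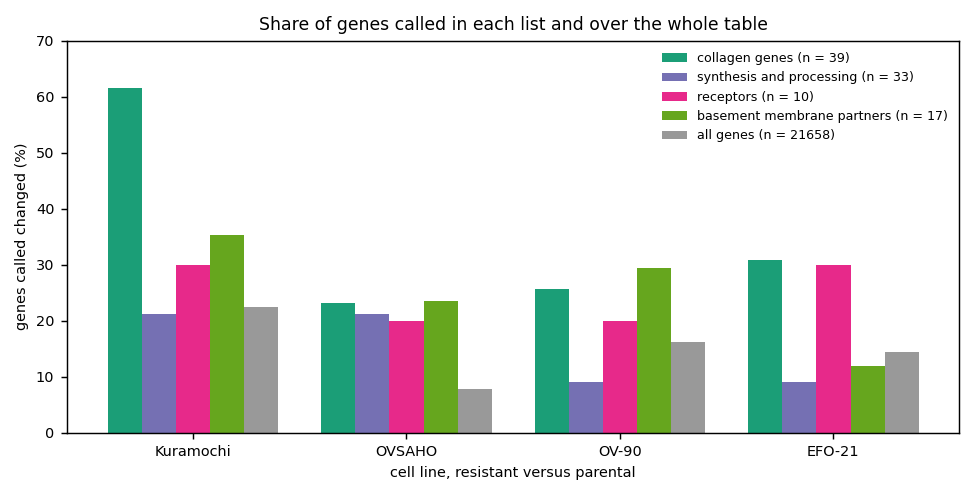
Percent of genes called changed between resistant and parental cells in each line (bars from 0), for the 39 collagen genes, the 3 companion lists and all 21658 genes of the table. The collagen share is 61.5% in Kuramochi and between 23.1% and 30.8% in the other lines, above the share of all genes each time.

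Markers of other cell types and of the epithelial state moved beside these changes. Of 8 ovarian carcinoma epithelium markers, 5 fell in Kuramochi and 4 in OVSAHO, where 10.6% and 3.83% of all genes were called lower. In OV-90 and EFO-21, where 16.1% and 14.3% of all genes were called, 0 were. With 8 genes, 0 calls at such shares do not set these 2 lines apart. The cell adhesion gene EPCAM fell in Kuramochi from 6.27, 6.59 and 6.56 to 2.85, 2.48 and 2.74 and in OVSAHO from 8.76, 8.82 and 8.91 to 5.83, 5.79 and 5.83. The summed level of the 5 fibroblast markers was lower after selection in Kuramochi, at 8.19 to 8.58 in parental and 6.34 to 6.48 in resistant libraries, with THY1 falling by 4.24 and LUM rising by 2.04. It was higher in OVSAHO, at 6.31 to 6.55 and 7.92 to 8.05, where DCN (4.22) and LUM (4.73) rose while COL1A1, COL1A2 and COL3A1 fell. In EFO-21 it was 6.11 to 6.49 before and 6.21 to 6.46 after, and in OV-90 12.35 to 13.23 and 12.05 to 12.19. Summed endothelial markers were 6.50 to 6.95 in parental and 7.78 to 8.04 in resistant Kuramochi. Of the 5, 3 were called there (22.5% of all genes), CDH5 higher by 2.87 and KDR and VWF lower. The endothelial sums were 3.07 to 3.52 and 3.74 to 3.90 in OVSAHO, 6.58 to 6.60 and 6.51 to 6.73 in OV-90, and 9.81 to 9.90 and 9.97 to 10.1 in EFO-21. Summed leukocyte markers were 5.69 to 6.77 and 5.14 to 5.48 in OVSAHO, where PTPRC and CD3E fell. They were 6.02 to 6.68 and 6.47 to 7.03 in Kuramochi, 7.07 to 7.81 and 6.55 to 6.72 in OV-90, and 7.32 to 7.69 and 6.79 to 7.11 in EFO-21. Their part in the collagen changes was not tested.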

How the data were processed

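RNA of 23 libraries from 4 cell lines was analysed, and members and gene lists were chosen with earlier results of these data known. The authors prepared stranded poly(A) libraries, aligned reads to GRCh37, summed exon reads of repeat runs, dropped exons with low counts in most samples, summarised exons per gene by a robust linear model (16448 genes) or by the mean log2 value, and quantile normalized each sample last. The deposited values are thus log2 expression, without counts, so no pseudocount was added and depth is unknown. The annotation release is not given in the sources used here. Column names carry line, state and a library number but no replicate number, so columns were assigned to groups. No column of per-sample values was left unused.

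Symbols were matched by gene identifier (20745 of 21658). Each comparison was fitted over all genes with limma 3.58.1 in R 4.3.3 (lmFit and eBayes with trend) and adjusted by Benjamini-Hochberg. Resistant and parental libraries were fitted in each line alone, parental contrasts on 11 libraries, contrasts between lines on 23 libraries with 8 group means, and the average change with cell line as an additive term. The procedure was tested on simulated data. Where exons overlap another gene, values can include reads of both. Within a line, p-values measure the spread between replicate libraries of its parental cells and of its resistant cells, and at baseline that between parental libraries. In the average fit the spread also holds differences in change between the lines. Its units were libraries, although only 4 lines were made resistant.

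Per-library values were printed for called members with a group mean above the median gene (at most 6 a line, 4 at baseline) and for the main chains of types I, III, IV, V and VI. From each companion list at most 3 rises and 3 falls a line were named. Alternatives were a single fit of all libraries, no trend, a filter on low values, recentring, other fold thresholds and leaving out each library.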

Additional observations from a re-analysis of the deposited data

Results flagged for a closer look

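The following results stood out because the change in 1 line differed, by a test of the difference itself, from the mean change of the other 3 lines. Such a difference was called for 26 members in Kuramochi (25.8% of all genes) and 21 in OV-90 (21.6%). It was called for 12 in OVSAHO (10.7%) and 12 in EFO-21 (17.2%). The 4 contrasts share libraries, so their counts are not independent. Among the 8 members called higher in a line and lower in another, COL15A1 (4.55) and COL16A1 (3.12) changed upward in Kuramochi relative to the other lines, and COL2A1 (-6.45) and COL28A1 (-3.02) downward. COL1A2 (4.37) and COL6A3 (3.07) stood apart in EFO-21, COL9A1 (2.75) in OVSAHO and COL6A1 (-2.95) in OV-90. The values of COL1A2 and COL6A3 rest in part on parental libraries that disagreed with each other. Without the OV-90 and Kuramochi libraries concerned they were 2.99 and 2.39 in EFO-21. Library 3 was then the only one of parental OV-90, so no test is drawn from these 2 values. Groups of 2 or 3 libraries were too small for a test of single outlying libraries.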

How the results depend on the processing

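No paired analysis was possible because the columns carry no replicate numbers. No called member reversed its direction where tested at the 2-fold threshold. Of 55 called changes between resistant and parental cells, 21 were called under every such alternative, 16 were lost under at least 1, and the other 18 were lost under none but had no value with genes of low mean left out. No trend left all counts of called members within 1.5 times, as did a single fit of the 23 libraries and recentring for the resistance and baseline counts, the 2 for which these were run. With genes of low mean left out, the called members for resistance were 17 of 24 left in Kuramochi, 1 of 16 in OVSAHO, 6 of 15 in OV-90 and 5 of 18 in EFO-21. In that order 19.1%, 5.36%, 19.5% and 10.8% of all genes were called. The called members were 15 in Kuramochi, 12 in OVSAHO, 11 in OV-90 and 14 in EFO-21 at baseline (of 19, with 28%, 31.1%, 39.5% and 32.7% of all genes). They were 12, 3, 11 and 5 for the difference between lines (22.2%, 7.66%, 19.7% and 13.1%) and 3 for the average change (3.8%). This setting tests fewer members. At a 1.5-fold threshold the counts were 16 in OVSAHO and 22 in EFO-21 for resistance (14.6% and 25.8% of all genes), 20 and 20 for the difference between lines (18.7% and 28.7%) and 17 for the average (14.4%). With no fold threshold they were 21 and 27 for resistance (33.3% and 48.4%). The Kuramochi and OV-90 counts at these thresholds are not given here.

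Leaving out 1 library at a time gave 2 to 13 called members in OV-90 for resistance (2 without any of the resistant libraries), 22 to 24 in Kuramochi, 8 to 10 in OVSAHO and 10 to 13 in EFO-21. At baseline it gave 24 to 28 in Kuramochi, 25 to 27 in OVSAHO, 21 to 25 in OV-90 and 25 to 28 in EFO-21. For the difference between lines it gave 23 to 27, 9 to 14, 17 to 23 and 11 to 15, in the order Kuramochi, OVSAHO, OV-90 and EFO-21, and for the average 6 to 9. Depth is unknown, so no limit from counting can be given for members near the floor.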
